A study of Homo sapiens with 9 samples.

Results

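The cell's sterol sensor was followed through the messages of its 7 core genes in HMEC-1, a line of human dermal microvascular endothelial cells immortalised with a viral large T antigen. The genes were SREBF1, SREBF2, SCAP, INSIG1, INSIG2, MBTPS1 and MBTPS2. They were matched by gene symbol, and all 7 were present among the 18293 genes listed in both deposited count tables. The set was picked from earlier results of these libraries in which SREBF1 and SREBF2 were lower with AMI-5. The AMI-5 values of the 7 genes are therefore a description. Counts of those past the threshold are given for them beside the share of all genes, with no p-value, and support nothing further. Cells were exposed for 16 h to AMI-5 at 100 µM, to AMI-1 at 100 µM, or to DMSO alone as control, in medium with 5.5 mM glucose. DMSO was the solvent in all 3 groups. The series presents AMI-5 and AMI-1 as inhibitors of methyltransferases; the design text describes AMI-5 as a tetrabromo oxoxanthenyl benzoate and AMI-1 as a naphthalene sulfonic acid dimer joined through a carbonyl. There were 3 poly-A libraries per group, 9 in all, from a single cell line, and the labels do not say whether they came from separate cultures, so p-values measure only the spread between libraries.

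Sterol regulatory element-binding proteins, the products of SREBF1 and SREBF2, are made as precursors in the endoplasmic reticulum membrane, bound to the escort protein SCAP. When sterols are plentiful, the INSIG proteins anchor SCAP there. When sterols are scarce, SCAP carries the precursor to the Golgi, where the site-1 protease (MBTPS1) and then the site-2 protease (MBTPS2) release the active transcription factor. SREBF2 is best known for driving cholesterol synthesis and uptake, and SREBF1 for driving fatty acid synthesis. INSIG1 and SREBF2 are themselves known targets of the pathway, so their messages are part of its feedback.

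SREBF2, INSIG1 and SREBF1 had the lowest fitted AMI-5 values of the set, and their promoters are shown because SREBF2 and INSIG1 are known to answer to the pathway they control. The windows are from RefSeq on GRCh38.p14 and run 300 bases on the gene's own strand, ending shortly after the annotated start. SREBF2 lies at chr22:41832855-41833154 (plus strand), INSIG1 at chr7:155297628-155297927 (plus strand) and SREBF1 at chr17:17836937-17837236 (minus strand). Capitals mark matches, on either strand, to the sterol regulatory element TCACNCCAC, the E-box CACGTG, the CCAAT box and the GC box GGGCGG.
SREBF2: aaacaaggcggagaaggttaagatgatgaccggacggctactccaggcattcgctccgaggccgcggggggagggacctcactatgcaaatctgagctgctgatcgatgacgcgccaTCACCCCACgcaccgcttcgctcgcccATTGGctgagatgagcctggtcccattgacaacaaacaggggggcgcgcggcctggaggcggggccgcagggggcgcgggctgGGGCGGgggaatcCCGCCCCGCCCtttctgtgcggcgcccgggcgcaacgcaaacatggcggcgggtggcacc
INSIG1: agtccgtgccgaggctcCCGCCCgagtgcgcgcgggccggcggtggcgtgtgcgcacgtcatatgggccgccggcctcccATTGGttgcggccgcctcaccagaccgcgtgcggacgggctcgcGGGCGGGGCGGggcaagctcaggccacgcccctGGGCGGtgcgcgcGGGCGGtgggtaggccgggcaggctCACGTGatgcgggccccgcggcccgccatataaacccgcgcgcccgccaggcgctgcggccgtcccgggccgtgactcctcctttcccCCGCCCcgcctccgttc
SREBF1: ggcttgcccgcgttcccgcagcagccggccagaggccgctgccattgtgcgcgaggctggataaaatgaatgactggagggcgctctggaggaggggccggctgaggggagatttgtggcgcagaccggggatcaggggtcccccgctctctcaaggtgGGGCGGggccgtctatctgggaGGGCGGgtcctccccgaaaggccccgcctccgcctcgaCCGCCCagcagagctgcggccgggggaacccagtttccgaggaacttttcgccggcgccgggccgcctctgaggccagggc
The SREBF2 window held 1 match to the sterol regulatory element, TCACCCCAC, beginning at position -133 from the gene start, with a CCAAT box at -106 and 3 GC boxes, of which the last 2 share a base. None of the windows read for the other 6 genes held that element, which occurred in 1.13% of the 35116 promoters in the table. INSIG2 had 2 windows there, of which only 1 was read. The INSIG1 window held 1 E-box at -55, 1 CCAAT box at -170 and 6 GC boxes, of which 2 share a base. The SREBF1 window held 3 GC boxes and none of the other motifs. E-boxes occurred in 7.26% of all promoters, CCAAT boxes in 34.6% and GC boxes in 45.0%, and the last 2 are common motifs. These are letter matches only, and the series measured no binding.

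Counts assigned to genes in both tables ran from 14451343 to 24691456 per library. Of these genes 18284 passed the filter on low counts, the 7 regulators among them. Endothelial identity was checked with 8 markers. The 7 tested summed to 625 to 855 CPM (read counts scaled to a common library size) with AMI-5, 818 to 1040 with AMI-1 and 753 to 1097 in controls. ENG made up the largest part of these sums, at 280 to 600 CPM over the 9 libraries. The cadherin CDH5 reached 124 to 200 CPM and TIE1 97.1 to 206 CPM. VWF stayed at 5.38 to 9.51 and ESAM at 0.544 to 2.87, and PECAM1 was not among the genes tested. Of 7 smooth muscle or fibroblast markers 5 were tested, summing to 59.8 to 81.7, 59.1 to 75.4 and 60.7 to 89.8 CPM with AMI-5, with AMI-1 and in controls. PDGFRB made up the largest part of them, at 41.7 to 65.0 CPM over the 9 libraries. None of the 4 epithelial markers was tested, and CD34 was the only one tested of 4 blood markers. Libraries with the same replicate number resembled each other: the level of GC-rich relative to GC-poor messages differed between numbers. The median deviation of genes above 60% GC minus that of genes below 40% GC was 0.41, -1.07 and 0.15 log2 units in AMI-5 replicates 1, 2 and 3, 0.76, -0.63 and -0.036 with AMI-1, and 0.86, -0.80 and 0.37 in controls. Fits carried the replicate number as a block, and values of the 7 regulators with a further correction for transcript GC content are given beside them.

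SREBF2, the sterol synthesis arm's transcription factor, had the lowest fitted AMI-5 value of the 7 genes. It was at 159.7, 98.1 and 153.4 CPM in AMI-5 replicates 1, 2 and 3, at 242.7, 164.7 and 185.2 CPM with AMI-1, and at 251.4, 157.2 and 216.2 CPM in controls. Each AMI-5 library was below its numbered control and its numbered AMI-1 library. The AMI-5 and AMI-1 groups did not overlap, while AMI-5 and control did, at AMI-5 library 1 (159.7) and control library 2 (157.2). The fitted log2 fold change of AMI-5 against control was -0.60 ± 0.070 (SE, n = 3 each; 95% interval -0.75 to -0.46), a ratio of 0.658. It was -0.49 ± 0.041 after GC correction. AMI-1 against control gave -0.068 ± 0.069 (95% interval -0.21 to 0.077; edgeR adjusted p = 0.788), or -0.041 with GC correction, with 2 of 3 pairs lower. In bulk RNA, less message per cell and fewer cells carrying it cannot be told apart.

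SREBF1, which directs fatty acid synthesis, had its lowest group mean with AMI-5 and an intermediate one with AMI-1, although in number 3 the AMI-1 library was the lowest. It was at 58.4, 30.2 and 52.3 CPM in AMI-5 replicates 1, 2 and 3, at 76.3, 43.9 and 48.98 CPM with AMI-1, and at 98.6, 46.9 and 69.7 CPM in controls. Both compounds were below control in 3 of 3 pairs, but the groups overlapped in each contrast. AMI-5 against control gave a log2 fold change of -0.59 ± 0.090 (SE; 95% interval -0.78 to -0.40), and -0.40 ± 0.050 after GC correction. For AMI-1 against control it was -0.33 ± 0.090 (95% interval -0.52 to -0.14), which did not pass the threshold (edgeR adjusted p = 0.148). With GC correction that contrast was -0.29 ± 0.049 and passed it (edgeR adjusted p = 0.00113). Over fits leaving out 1 library each, its edgeR adjusted p ran from 0.00893 to 0.669, and it passed without AMI-1 library 2 or without AMI-5 library 3. In those fits 308 and 167 genes passed, against 77 in the fit of all libraries. The contrast shares its control libraries with that of AMI-5, on which the set was picked, so its p-values are not independent support. With GC correction 1.89% of all genes passed on the lower side for AMI-1, against 0.421% in either direction without it.

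**Figure D1:**
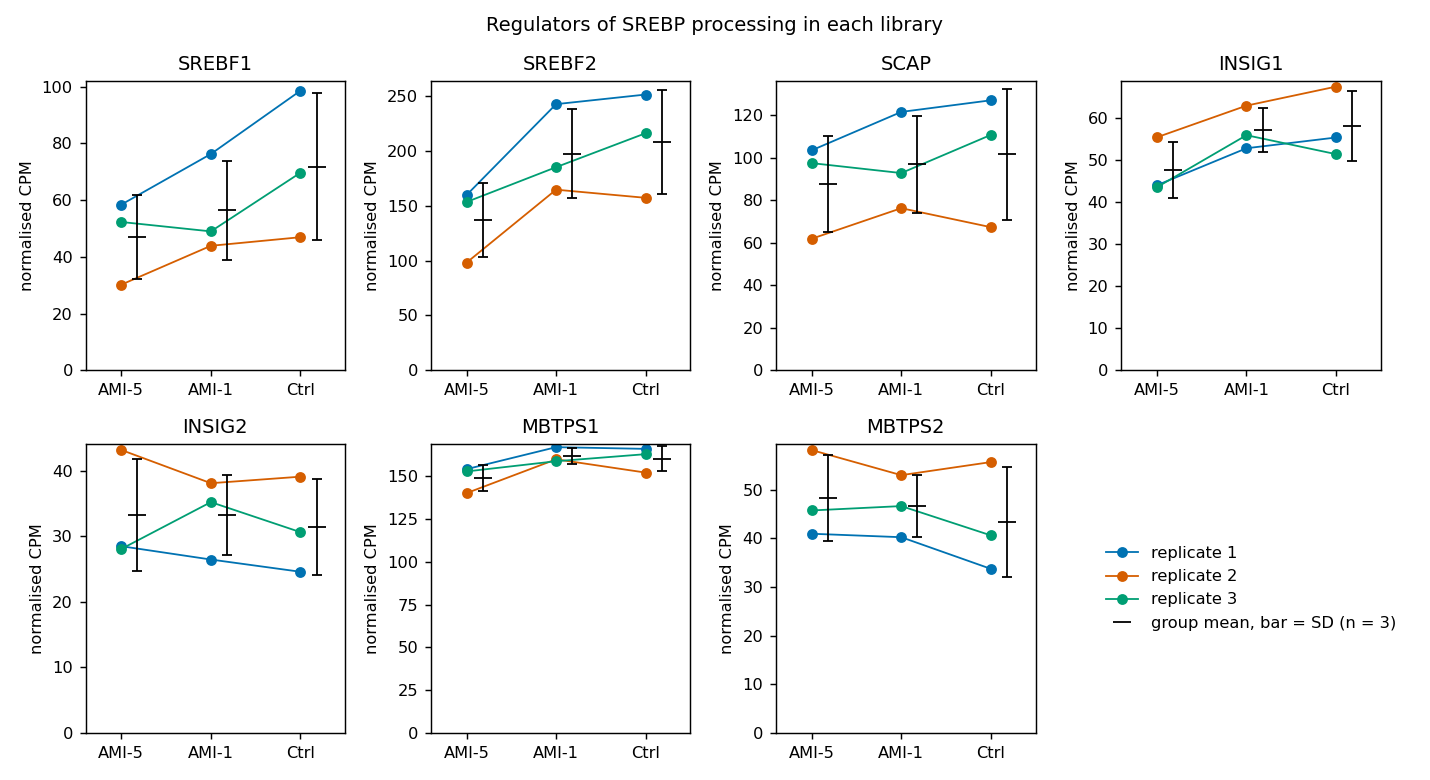
Normalised CPM of the 7 regulators in each library (vertical axis, starting at 0), with AMI-5, AMI-1 and control from left to right; lines join libraries of the same replicate number and black bars give the group mean ± SD (n = 3). SREBF1, SREBF2 and SCAP are lowest in replicate 2 of each group, and INSIG1, INSIG2 and MBTPS2 highest there.

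SCAP, the escort of both precursors, stayed closer to control. Its values were 103.6, 61.9 and 97.5 CPM in AMI-5 replicates 1, 2 and 3, 121.7, 76.3 and 92.9 CPM with AMI-1, and 127.1, 67.4 and 110.8 CPM in controls. AMI-5 was below control in 3 of 3 pairs with overlapping groups. The log2 fold change was -0.20 ± 0.073 (95% interval -0.36 to -0.050), and -0.027 ± 0.040 after GC correction. SCAP has the second highest transcript GC content of the set, 62.3%, after SREBF1 at 62.8%. AMI-1 against control was -0.053 ± 0.073 (edgeR adjusted p = 0.854), or -0.011 with GC correction.

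SREBF2 and SCAP are both GC-rich, at 57.1% and 62.3%, and their counts were set against each other within each library. The ratio was 1.54, 1.58 and 1.57 in AMI-5 replicates 1, 2 and 3, 1.99, 2.16 and 1.99 with AMI-1, and 1.98, 2.33 and 1.95 in controls. All 3 AMI-5 libraries lay below the other 6. The ratio of SREBF1 to SREBF2 was 0.366, 0.308 and 0.341 with AMI-5, 0.314, 0.267 and 0.264 with AMI-1, and 0.392, 0.299 and 0.322 in controls. It was lower with AMI-1 than in control in each pair. The AMI-5 values lay within the control range. These are 2 of the 7 ratios computed, and they were described, not tested.

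**Figure D2:**
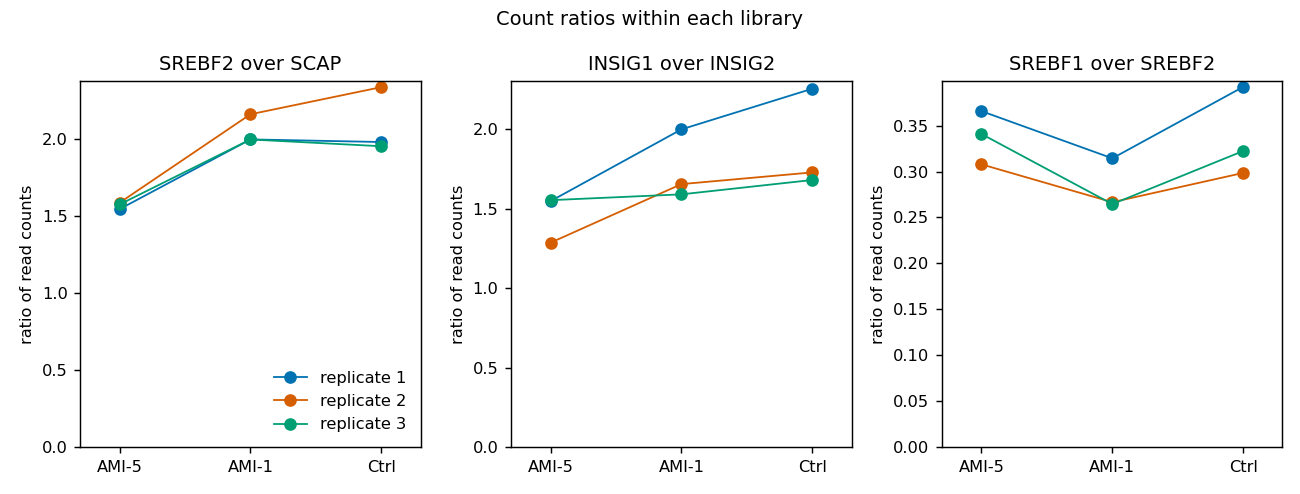
Ratios of read counts within each library (vertical axes from 0) for SREBF2 over SCAP, INSIG1 over INSIG2 and SREBF1 over SREBF2, with AMI-5, AMI-1 and control from left to right and lines joining replicate numbers. The 3 AMI-5 libraries lie at 1.54 to 1.58 for SREBF2 over SCAP, below the other 6.

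The retention proteins differed from each other. INSIG1, whose message is a target of SREBPs, was at 44.1, 55.5 and 43.6 CPM in AMI-5 replicates 1, 2 and 3, at 52.9, 63.0 and 56.0 CPM with AMI-1, and at 55.4, 67.5 and 51.5 CPM in controls. It was lower with AMI-5 than with control or AMI-1 in 3 of 3 pairs, with overlapping groups. The log2 fold change of AMI-5 against control was -0.28 ± 0.065 (95% interval -0.42 to -0.15) and -0.30 ± 0.049 after GC correction. Its transcript is 46.0% GC. AMI-1 against control was -0.012 ± 0.065 (edgeR adjusted p = 0.966), or -0.013 with GC correction. INSIG2, its relative, was at 28.5, 43.1 and 28.0 CPM with AMI-5, 26.4, 38.1 and 35.2 CPM with AMI-1, and 24.6, 39.1 and 30.6 CPM in controls. Its AMI-5 value was 0.073 ± 0.088 (95% interval -0.11 to 0.26) and was -0.095 ± 0.062 with GC correction. AMI-1 gave 0.094 ± 0.089 (edgeR adjusted p = 0.764), or -0.0048 with GC correction. INSIG1 over INSIG2 in counts was 1.55, 1.29 and 1.55 with AMI-5, 2.00, 1.66 and 1.59 with AMI-1, and 2.26, 1.73 and 1.68 in controls. The ratio was below control in 3 of 3 pairs with each compound. The AMI-5 and control groups did not overlap, while those of AMI-1 and control did. This ratio of raw counts carries no GC correction, and the INSIG2 transcript is 35.4% GC. With GC correction INSIG1 and INSIG2 lay at -0.013 and -0.0048 for AMI-1, and at -0.30 and -0.095 for AMI-5. The ratio is 1 of the 7 computed and was described, not tested.

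Of the proteases, MBTPS1 varied little between libraries. MBTPS1, which makes the first cut, was at 154.2, 140.1 and 152.8 CPM in AMI-5 replicates 1, 2 and 3, at 167.0, 159.9 and 158.8 CPM with AMI-1, and at 166.0, 152.2 and 162.9 CPM in controls. All 3 AMI-5 libraries were below all AMI-1 libraries, and below control in each pair with overlapping groups. The log2 fold change of AMI-5 against control was -0.11 ± 0.053 (95% interval -0.22 to 0.0062), or -0.068 with GC correction. Against AMI-1 it was -0.12 ± 0.053, or -0.097 with GC correction. AMI-1 against control was 0.014 ± 0.053 (edgeR adjusted p = 0.951), or 0.029 with GC correction. Its control CV was 4.54%, against 36.1% for SREBF1. MBTPS2, which makes the second cut within the membrane, was at 41.0, 58.2 and 45.7 CPM with AMI-5, 40.2, 53.0 and 46.6 CPM with AMI-1, and 33.7, 55.7 and 40.6 CPM in controls. It was higher with AMI-5 in 3 of 3 pairs, by a fitted 0.17 ± 0.071 (95% interval 0.015 to 0.32). After GC correction the value was 0.0081 ± 0.052. AMI-1 gave 0.12 ± 0.072 (edgeR adjusted p = 0.595), or 0.024 with GC correction.

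Counted over the set, AMI-5 against control passed the threshold, an edgeR adjusted p under 0.05, for 3 of 7 genes on the lower side (SREBF1, SREBF2, INSIG1) and 0 on the higher. Of all genes tested 7.45% passed on the lower side and 3.42% on the higher. With GC correction the same 3 passed, beside 8.08% of all genes. The set was picked on this contrast, so nothing is read from these counts. In pairs, 5 of 7 were lower in 3 of 3, beside 28.8% of all genes, and 1 was higher in 3 of 3, beside 24.8%. For AMI-1 against control, 0 of 7 passed, beside 0.421% of all genes in either direction. An unadjusted p under 0.05 was found for 1 of 7, beside 10.1% of all genes, and DESeq2 called 0. With GC correction SREBF1 passed, beside 1.89% of all genes on the lower side. It was also the 1 gene of 7 lower in 3 of 3 AMI-1 pairs, a share of 15.7% over all genes.

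AMI-5 against AMI-1 uses the same AMI-5 libraries, so it is also a description. Of the 7 genes 2 passed on the lower side, SREBF2 and INSIG1, and 0 on the higher, beside 3.4% and 1.61% of all genes. SREBF2 was at -0.54 ± 0.070 (95% interval -0.68 to -0.39), or -0.45 ± 0.041 with GC correction. INSIG1 was at -0.27 ± 0.065, or -0.29 ± 0.049 with GC correction. SREBF1 was at -0.26 ± 0.091 (95% interval -0.45 to -0.069), lower in 2 of 3 pairs, or -0.12 ± 0.051 with GC correction. SCAP gave -0.15, INSIG2 -0.020 and MBTPS2 0.044, and with GC correction -0.016, -0.090 and -0.016. With GC correction the same 2 genes passed, beside 6.4% of all genes. SREBF2, INSIG1 and MBTPS1 were lower in 3 of 3 pairs, beside 18.5% of all genes, and SREBF2 and MBTPS1 had groups that did not overlap, beside 3.28%.

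**Figure D3:**
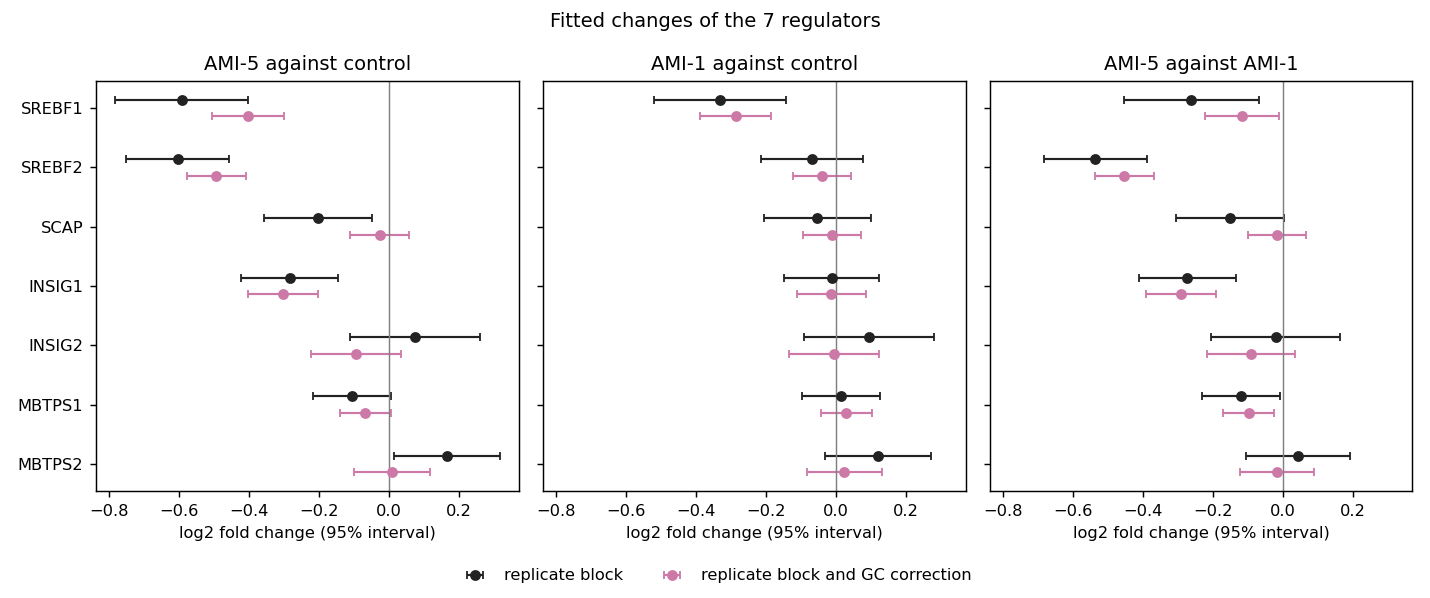
Fitted log2 fold change (horizontal axis) with 95% interval for the 7 regulators in 3 contrasts, from the fit with a replicate block (black) and with a further GC correction (pink). SREBF2 lies at -0.60 and -0.49 for AMI-5 against control and at -0.068 and -0.041 for AMI-1 against control, while SREBF1 lies below 0 in all 3 contrasts.

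Calls depended on single libraries and on the block. Since the set was picked on AMI-5 values of these libraries, what follows says only how the counts above depend on single libraries. SREBF2 passed in each of the 9 fits that left out 1 library. SREBF1 in AMI-5 against control did not pass without AMI-5 library 1. INSIG1 in that contrast did not pass without control library 1, control library 3, AMI-5 library 1 or AMI-5 library 2. SCAP did not pass in the fit of all libraries, in which 1988 genes passed for this contrast. It passed without control library 2, AMI-1 library 2, AMI-1 library 3 or AMI-5 library 3. In those fits 1706, 2936, 4232 and 2926 genes passed, in that order. MBTPS2 passed, on the higher side, without AMI-1 library 3. In AMI-5 against AMI-1, INSIG1 did not pass without control library 1, AMI-1 library 1, AMI-5 library 1 or AMI-5 library 2. There SREBF1 passed without AMI-1 library 3 or AMI-5 library 3, and SCAP and MBTPS1 passed without AMI-1 library 3. Without the replicate block no gene passed in AMI-5 against control, 0% of all genes, and 2.7% of all genes had an unadjusted p under 0.05. SREBF1 was at -0.61 and SREBF2 at -0.60 without the block. All groups hold the same replicate numbers, so dropping the block could hardly move these fold changes, and their likeness supports nothing. The standard errors did change. For SREBF1 the error was 0.090 with the block and 0.34 without, where the interval ran from -1.39 to 0.17. For SREBF2 it was 0.070 with the block and 0.24 without, where the interval ran from -1.16 to -0.048.

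**Figure D4:**
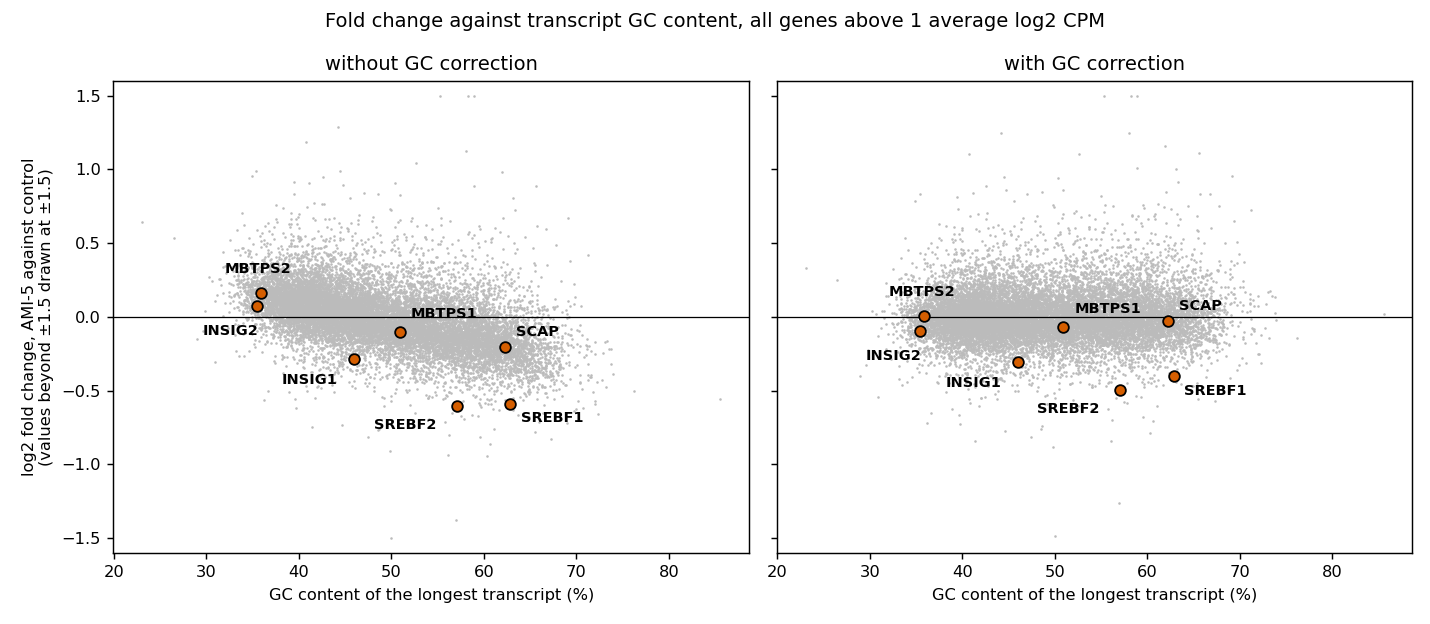
Log2 fold change of AMI-5 against control (vertical axis) by GC content of the longest transcript (horizontal axis, percent) for all genes above 1 average log2 CPM (grey) and the 7 regulators (orange), without and with GC correction. SCAP at 62.3% GC lies at -0.20 without and -0.027 with the correction, while SREBF2 at 57.1% lies at -0.60 and -0.49, and INSIG1 at 46.0% at -0.28 and -0.30.

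Compared per kilobase of longest transcript, control cells held most message of MBTPS1 (37.0 CPM per kb) and SREBF2 (36.5), then SCAP (23.2), INSIG1 (19.3), SREBF1 (15.4), INSIG2 (9.86) and MBTPS2 (9.73). Each gene's range over the 3 control libraries overlapped that of its neighbour in this order. With AMI-5 the order of means was MBTPS1 (34.4), SREBF2 (24.1), SCAP (20.0), INSIG1 (15.9), MBTPS2 (10.8), INSIG2 (10.4) and SREBF1 (10.1). There the ranges of MBTPS1 and SREBF2 did not overlap, nor did those of INSIG1 and MBTPS2. With AMI-1 SREBF2 (34.7) stood clear of SCAP (22.1), and INSIG1 (19.0) of SREBF1 (12.1). SREBF1 was the fifth by mean level with AMI-1 and in controls and the last with AMI-5, where its range overlapped that of INSIG2.

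The 9 libraries also show which genes followed the regulators most closely once replicate means were removed, among 6848 genes. The 5 nearest to SREBF2 were CSNK1D, PAK4, RABL6, STARD3 and TGFB1I1, with Pearson r from 0.996 to 0.997. Their AMI-5 log2 fold changes ran from -0.24 (CSNK1D) to -0.57 (RABL6). The 5 nearest to SREBF1 were RUSC2, ARHGAP17, TLN1, KIAA1967 and EIF4G1, at r from 0.992 to 0.996. Those nearest to INSIG1 were TGFBR2, RBMS2, ERCC6, EGFR and PGRMC1, at 0.977 to 0.986. The 9 points share their libraries, depth and base composition, so these are descriptions. They also keep the differences between groups, on which the set was picked. The 5 genes named are the highest of 6848, so r values near their top are a result of the ranking. Among all pairs of the 7 regulators, SREBF2 and MBTPS1 had the highest r, 0.96, followed by SREBF1 and SREBF2 at 0.89. SREBF1 and MBTPS2 had the lowest, -0.86.

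Genes sharing ground with the regulators were also read, since counting by strand is not given and reads cannot be told apart. RAI1, on the opposite strand to SREBF1, averaged 61.2 ± 24.1 CPM with AMI-5, 75.4 ± 30.6 with AMI-1 and 76.5 ± 34.0 in controls (SD, n = 3 each), with log2 fold changes of -0.30 for AMI-5 and 0.00037 for AMI-1. SREBF2-AS1, opposite SREBF2 and named RP5-821D11.7 in the counts, averaged 8.90 CPM with AMI-5, 11.5 with AMI-1 and 12.01 in controls, with a log2 fold change of -0.41 for AMI-5. YY2, a retrogene on the same strand within MBTPS2, averaged 5.94 CPM with AMI-5, 5.58 with AMI-1 and 5.49 in controls. The microRNA genes MIR33A and MIR33B within SREBF2 and SREBF1 were not analysed here.

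Genes downstream and around the sensor were read from 7 lists, chosen with earlier results known. Calls in the lists come from the fit with the replicate block, and without it 0 genes passed. Of 23 tested genes of cholesterol synthesis and uptake, 7 fell and 0 rose with AMI-5 against control, beside 7.45% and 3.42% of all genes, with a list median of -0.078, against -0.0050 over all genes. MVD, which makes isopentenyl diphosphate, averaged 36.0 ± 13.8 CPM with AMI-5, 53.1 ± 14.4 with AMI-1 and 57.0 ± 19.1 in controls (SD, n = 3 each). Its log2 fold change was -0.66 ± 0.091 for AMI-5 and it passed in 9 of 9 fits without a library. LSS, which closes the sterol rings, fell (-0.42 ± 0.064), also in 9 of 9. DHCR7, the last enzyme of one synthesis branch, was at -0.35 and did not pass without control library 1, AMI-5 library 1 or AMI-5 library 2. Against AMI-1, 4 of 23 were lower with AMI-5, MVD, LSS and DHCR7 among them, and 0 were higher, beside 3.4% and 1.61% of all genes. MVD passed there in 9 of 9 fits, while LSS and DHCR7 lost their calls without AMI-1 library 1, AMI-1 library 2, AMI-5 library 1 or AMI-5 library 2, and DHCR7 also without control library 1 or control library 3. With GC correction 11 fell and 1 rose against control, beside 8.08% and 5.15% of all genes.

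Fatty acid synthesis genes, the arm of SREBF1, moved in both directions. Of 14 tested, 4 fell and 1 rose with AMI-5 against control, beside the same 7.45% and 3.42% of all genes, with a list median of -0.070. With GC correction 7 fell and 1 rose, beside 8.08% and 5.15%. FASN, the fatty acid synthase, was at -0.48 ± 0.088, FADS2, a desaturase, at -0.38 ± 0.068, SCD, which makes oleate, at -0.35 ± 0.054, and ME1, a source of NADPH, at 0.25 ± 0.064. SCD passed in 9 of 9 fits without a library. FASN lost its call without control library 1 or AMI-5 library 1, FADS2 without AMI-5 library 1, and ME1 without control library 1, control library 3, AMI-5 library 1 or AMI-5 library 2. With AMI-1, 0 of 14 passed by edgeR without GC correction or by DESeq2, and 5 of 14 had an unadjusted p under 0.05, beside 10.1% of all genes. Without AMI-1 library 2, 2 of 14 passed, in a fit where 308 genes passed against 77 in the fit of all libraries. With GC correction ACACA, FASN, SCD and LPIN1 fell with AMI-1, 4 of 14, named after their values were seen. In the cholesterol list 1 gene then fell and 1 rose, TM7SF2, beside 1.89% and 1.23% of all genes. Against AMI-1, FADS2 was lower and ME1 higher with AMI-5. Neither passed there without AMI-1 library 1 or AMI-5 library 1, nor FADS2 without AMI-5 library 2.

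Export, turnover and cofactor genes were read in the same way, and the list medians were 0.055 for SCAP export, -0.065 for INSIG degradation and related genes, -0.027 for other protease substrates, 0.016 for nuclear cofactors and -0.12 for the liver X receptor arm. SEC24A and SAR1B, parts of the COPII coat that buds vesicles from the endoplasmic reticulum, rose by 0.29 and 0.21 with AMI-5, 2 of 14 genes of SCAP export and SREBP maturation. Their calls were lost without control library 1, control library 3, AMI-5 library 1 or AMI-5 library 2, and that of SAR1B also without AMI-1 library 1 and with GC correction. AUP1, which acts in protein degradation at the endoplasmic reticulum, fell in 9 of 9 fits without a library (-0.40 ± 0.062), the 1 of 13 in its list. Against AMI-1 it was also lower, a call lost without AMI-1 library 1, AMI-1 library 2, AMI-5 library 1 or AMI-5 library 2. Of 11 other protease substrates and ATF6 targets, CREB3L1 (-0.36) and ATF6B (-0.32), membrane-bound transcription factors cut by the same proteases, fell. CREB3L1 lost its call without AMI-5 library 1 or AMI-5 library 2, and ATF6B also without control library 1 or control library 3. Against AMI-1 ATF6B was lower as well, but passed in only 2 of 9 fits without a library, those that left out AMI-1 library 3 or AMI-5 library 3. Of 12 nuclear cofactors and turnover genes, MED15, a Mediator subunit that binds SREBPs, and GSK3A, a kinase that marks them for degradation, fell (-0.37 and -0.24). Both lost their calls without control library 1, AMI-5 library 1 or AMI-5 library 2, and GSK3A also without control library 2 or control library 3. In the liver X receptor and sterol efflux list 0 of 11 passed, with 3 at an unadjusted p under 0.05, beside 27.2% of all genes. With AMI-1, 0 genes passed in any of the 7 lists by DESeq2 or by edgeR in the fit of all libraries without GC correction, with unadjusted p under 0.05 in 0 to 5 genes of a list.

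**Figure D5:**
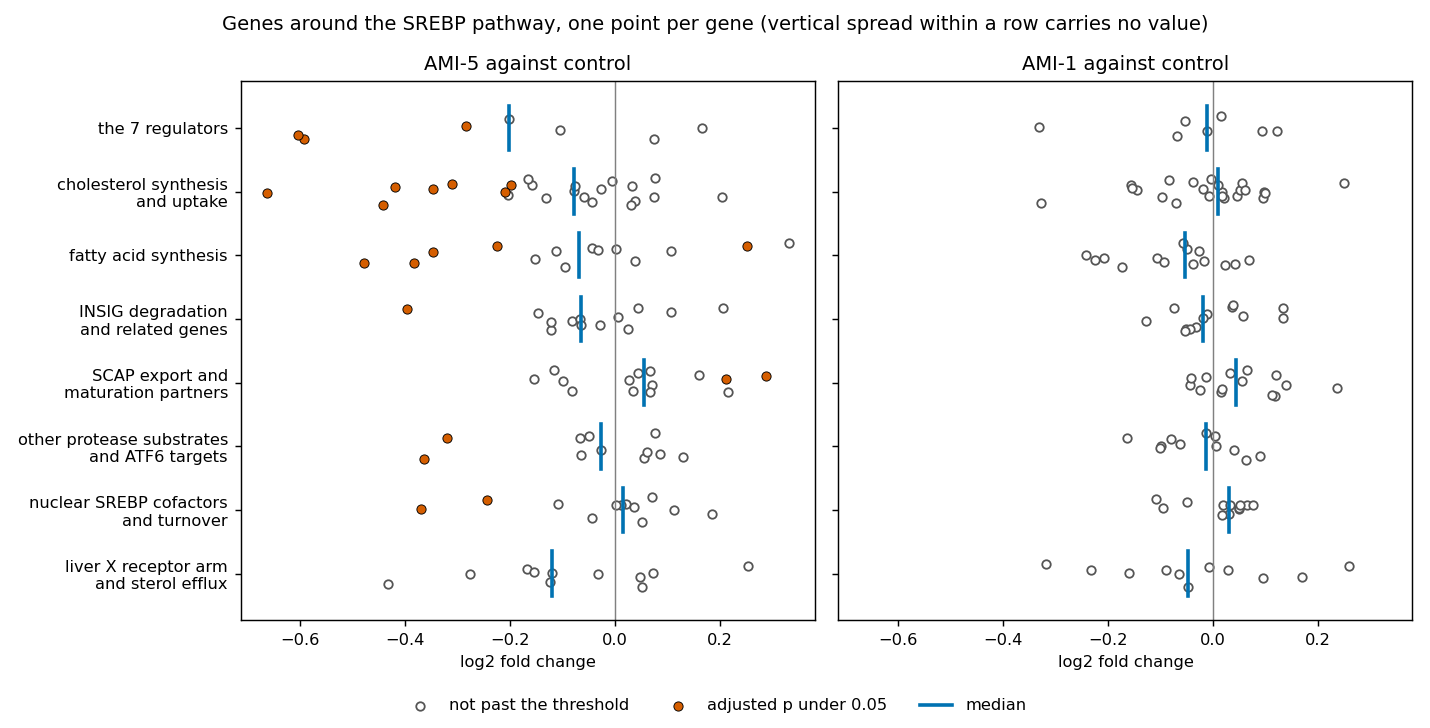
Log2 fold change (horizontal axis) of the 7 regulators and the genes of 7 related lists, 1 point per gene, for AMI-5 and AMI-1 against control; filled points have an edgeR adjusted p under 0.05 and blue bars are medians. With AMI-5, 7 of 23 cholesterol genes and 4 of 14 fatty acid genes are filled below 0; with AMI-1 none is filled.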

How the data were processed

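The authors deposited raw read counts per gene in a pair of tables, 1 per compound, with identical control counts. The submitters' processing notes name BWA, bedtools and hg19, without versions; annotation and strand setting are not stated in these sources. No gene in either table had a mean count under 10, so low genes could enter through 1 compound, and genes found in both tables were used. Counts were fitted in edgeR 4.0.16 (R 4.3.3; TMM, filterByExpr, quasi-likelihood F test) with all 9 libraries, group and replicate number as a block, adjusted by Benjamini-Hochberg over 18284 genes; the script was tested on simulated data. Replicate number was a block because the rule that defined the set paired libraries by it. Labels with the same number also share a prefix, but they do not say what the number stands for. Same-numbered libraries deviated together from their group means (9 pairs, r 0.431 to 0.871). The 18 other pairs had r from -0.80 to 0.20. Deviations from a mean of 3 libraries cancel within a group, which pulls those 18 values down. The biological coefficient of variation was 5.64% with the block and 23.7% without. Standard errors and 95% intervals are those implied by the F test. CPM are TMM-normalised; log2 CPM had a prior count of 2. GC content, from the longest GENCODE v29 transcript, was known for 95.7% of genes, and its correction was a lowess (span 0.3) per library. Genes named from the lists were up to 4 with the largest changes past the threshold; some genes that this rule names are not reported here. The members, lists and alternatives were chosen with earlier results of these data known. Alternatives were no block, DESeq2 1.42.0 size factors and Wald test, no filter, 2 groups only, the GC correction and leaving out each library. Intervals cover the spread between libraries, and PCR reads without molecular identifiers are not independent molecules.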

Additional observations from a re-analysis of the deposited data

How the results depend on the processing

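The number of genes passing (77 for AMI-1 against control, 1988 for AMI-5 against control, 916 for AMI-5 against AMI-1) and of regulators passing (0, 3 and 2) kept within 1.5 times under DESeq2 size factors, no low-count filter and the DESeq2 Wald test. Without the replicate block 0 genes and 0 regulators passed in each contrast. With only the 2 groups compared, 4286 genes and 5 regulators passed for AMI-5 against control and 1 regulator for AMI-5 against AMI-1. With the replicate block and GC correction 570 genes and 1 regulator passed for AMI-1 against control and 2034 genes for AMI-5 against AMI-1. Leaving out 1 library gave 14 to 308, 172 to 4232 and 195 to 3408 genes, and 0 to 1, 1 to 5 and 1 to 5 regulators. The causes were not tested. GC correction turned the sign of INSIG2 for AMI-1 (-0.0048) and for AMI-5 against control (-0.095), and of MBTPS2 for AMI-5 against AMI-1 (-0.016). Leaving out 1 library turned small AMI-1 values, over ranges of -0.070 to 0.033 (INSIG1), -0.018 to 0.048 (MBTPS1), -0.15 to 0.039 (SREBF2), -0.14 to 0.059 (SCAP) and -0.030 to 0.18 (INSIG2), and, for AMI-5 against AMI-1, -0.028 to 0.094 (MBTPS2) and -0.11 to 0.12 (INSIG2). With 3 libraries per group, differences near the standard errors above cannot be resolved.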
